A study of Drosophila melanogaster with 32 samples.

Results

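Mono3 is 1 of 8 laboratory populations of Drosophila melanogaster, and 1 of 4 that evolved under enforced monogamy. Its females were hybridised to 4 Affymetrix arrays out of 32 in the series, chosen by their labels. The 4 arrays were set against the 12 arrays of females of the other monogamous populations, Mono1, Mono2 and Mono4. All 8 populations descend from LHM, an outbred laboratory stock, and the promiscuous populations Prom1 to Prom4 were kept under the usual mating protocol of that stock. After 46 generations, females were given males from either their own population or the population of the other regime that bears the same number, and whole bodies were frozen 6 h after mating. The Mono3 crosses were therefore M3M3, with Mono3 males, and M3P3, with Prom3 males, each with 1 array in each of 2 labelled batches. The other Mono lines had the same balance of mate regime and batch, but their males came from other populations, those bearing their own numbers. Between Mono3 and the other lines, female line and male population thus changed together, and their effects cannot be told apart. An evolved line is 1 population, so its 4 arrays are replicates of that population and not of the monogamous regime. The values below are log2 expression values, and a difference of 1 is a 2-fold difference in signal.

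Evolved populations kept apart diverge both by selection and by the chance loss and spread of variants that were present at the start. Cytochrome P450 enzymes, glutathione transferases and UDP-glycosyltransferases modify hormones, plant compounds and insecticides, and they belong to gene families with many tandem copies. A mated female also carries a program of egg production, in which follicle cells of the ovary secrete first the vitelline membrane and then the chorion of the eggshell, and in which the sperm storage organs secrete proteases.

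Pairwise correlations of the 4 Mono3 arrays over all probe sets lay between 0.9951 and 0.9980 over 6 pairs, with a median of 0.9969. Pairs within the other Mono lines lay between 0.9959 and 0.9977 over 18 pairs, with a median of 0.9970. The lowest Mono3 pair was thus below every pair within those lines. Arrays of Mono3 and of another Mono line in the same batch correlated at 0.9936 to 0.9964 over 24 pairs. Array medians lay between 5.39 and 5.49 over all 32 arrays. As to markers of the labelled tissue, the mean of the 3 yolk protein genes was 14.47 to 14.54 in Mono3 and 14.52 to 14.64 in the other Mono arrays, and the 4 measured of 5 germline markers averaged 10.08 to 10.21 against 10.04 to 10.27. The 4 measured of 5 eggshell markers averaged 12.60 to 13.33 against 12.62 to 13.70. The 8 testis markers averaged 3.52 to 3.63 in Mono3 and 3.41 to 3.60 in the others, near the bottom of the scale. The 9 markers of the male accessory gland averaged 3.68 to 3.85 against 3.66 to 3.78, with gene means from 2.77 to 7.06. None of the 28 measured markers was called between Mono3 and the other lines.

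A technical measure moved with the line. The arrays carry control transcripts probed near each end, and a larger 3′ minus 5′ difference goes with shorter labelled RNA. For actin this difference was 2.00 to 2.29 in Mono3 and 1.68 to 2.03 in the other Mono arrays of batch 1, and 3.05 to 3.10 against 2.76 to 3.07 in batch 2. For eIF-4a it was 2.28 to 2.38 against 1.92 to 2.25 in batch 1 and 3.19 to 3.22 against 2.78 to 3.16 in batch 2. For GAPDH it was 1.15 to 1.22 against 1.09 to 1.21, and 1.59 to 1.67 against 1.47 to 1.62. The ranges of Mono3 and the other lines overlapped for actin and GAPDH, and those for eIF-4a did not, with Mono3 higher. The lowest GAPDH value of Mono3, 1.15 in the M3P3 array of batch 1, was below those of 3 of the 6 other arrays of that batch. Its part in the results was not tested beyond the fit that follows. With the 3′ minus 5′ difference as a term in the model, 819 probe sets were called in place of 847, and 23 of the 25 named genes of the main comparison kept their call; Ser6 and CG17239 did not.

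The first question was how far Mono3 females differed from females of the other monogamous lines. In limma's moderated test on all 32 arrays, 847 of 18769 probe sets differed at an adjusted p under 0.05, or 4.51%. They were 373 higher and 474 lower in Mono3. Counted as genes, 294 of 11982 rose (2.45%) and 383 fell (3.2%). Most differences were small: the median absolute log2 difference of the 677 called genes was 0.316, and 42 exceeded 1, of which 13 were higher and 29 lower. The other Mono lines, each set against its own 3 peers, gave 959 probe sets for Mono1, 774 for Mono2 and 825 for Mono4, so the count for Mono3 lay among theirs. It was 427 without the M3P3 array of batch 1 and 545 without that of batch 2. In whole bodies, fewer cells of a type and less RNA per cell cannot be told apart, and this holds for every difference below.

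A stricter rule asked in addition that the 4 Mono3 arrays all lie above, or all below, the 12 other Mono arrays. It held for 199 probe sets, or 1.06% of those tested. The absence of overlap alone, with no test, held for 247 probe sets (1.32%). As genes, 68 were higher by the stricter rule (0.568%) and 96 were lower (0.801%), with a median absolute log2 difference of 0.413. Of these 164 genes, 138 had a Mono3 mean beyond the means of all 7 other lines, the promiscuous ones included, as had 501 of the 677 called genes. Both sets were chosen on these arrays, and the stricter rule itself puts Mono3 beyond Mono1, Mono2 and Mono4. The share over all genes was not computed, so these counts do not show how far Mono3 stands apart. Leaving out Mono1, Mono2 or Mono4 gave 312, 341 or 394 probe sets. This leaves fewer arrays to clear and also changes the lines compared, and the cause of the rise was not tested.

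**Figure D1:**
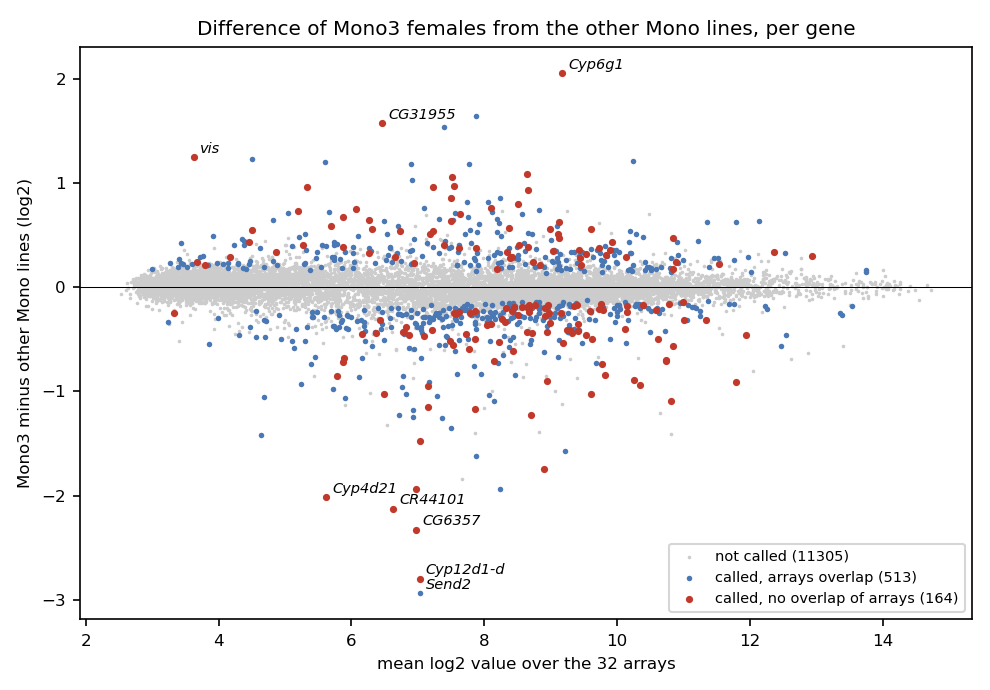
Each point is 1 of 11982 genes, with the mean log2 value over the 32 arrays on the horizontal axis and the log2 difference of Mono3 from the other Mono lines on the vertical axis. Red points are the 164 genes called with no overlap of arrays, blue the other 513 called genes and grey those not called; Cyp6g1 stands alone at the top and Cyp12d1-d and Send2 at the bottom.

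The called genes were spread over all chromosome arms. By the test alone, 169 of 2427 genes on arm 2R were called (6.96%), 109 of 1873 on X (5.82%), 124 of 2205 on 2L (5.62%), 129 of 2344 on 3L (5.5%) and 139 of 2974 on 3R (4.67%). By the stricter rule, 2R held 53 genes (2.18% of its genes), X 32 (1.71%), 3L 29 (1.24%), 3R 28 (0.941%) and 2L 20 (0.907%). The 4th chromosome, with 65 genes measured, had 2 called.

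Cyp6g1 showed the largest rise of any gene and the lowest p of the comparison. This P450 is known in D. melanogaster for conferring resistance to DDT and other insecticides when it is overexpressed. Its values in the Mono3 arrays were 11.28 and 10.98 in M3M3 and 11.10 and 10.88 in M3P3, given here and below in the order of batch 1 and batch 2. The 12 other Mono arrays ran from 8.70 through a median of 9.002 to 9.54. The lowest Mono3 array was thus well above the highest of the others. The difference was 2.06 ± 0.12 on the log2 scale (SE), a 4.17-fold difference, with an adjusted p of 3.83e-09. None of the 16 Prom arrays reached it either: they lay between 8.26 and 9.29, and the gap from the Mono3 mean to the nearest of the 7 other line means was 1.91. Cyp6g2, the neighbouring gene of the same subfamily, was not called, with a difference of 0.17 and an adjusted p of 0.305.

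vis encodes a homeodomain transcription factor of the TGIF class known for its role in male meiosis. Its values were 4.26, 5.13, 4.81 and 4.66 in Mono3, against 3.28 to 3.62 with a median of 3.44 in the other Mono arrays. All 28 other arrays were low, since the 16 Prom arrays lay between 3.32 and 3.67. The difference was 1.25 ± 0.10 with an adjusted p of 1.76e-07. achi, its tandem duplicate with a very similar sequence, differed by -0.02 with an adjusted p of 0.919. Probes that cannot separate the pair would make the value of vis uncertain, and this was not tested.

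CG31955 was higher by 1.58 ± 0.14 on the log2 scale, with 7.60, 8.01, 8.08 and 8.04 in Mono3 against 5.41 to 7.26 in the other Mono arrays. The other lines varied widely among themselves: line means were 7.07 in Mono1, 6.47 in Mono2, 5.51 in Mono4 and 4.69 in Prom3. CG9360 was higher by 1.09 ± 0.09, at 9.67, 9.32, 9.48 and 9.33 in Mono3 against 7.53 to 9.16. CG3739 was higher by 1.06 ± 0.12, at 8.91, 8.24, 8.70 and 8.11 against 6.99 to 8.07. For each of these genes the Mono3 mean was the highest of the 8 lines.

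The other genes of the 12 highest under the rule differed by 0.76 to 0.97. Drep1, which encodes a protein related to the inhibitor of the caspase-activated DNase, was higher by 0.97 ± 0.11, and its Prom3 mean of 8.35 was close to that of Mono3. vanin-like, related to vertebrate enzymes that release pantothenic acid, was higher by 0.94 ± 0.10 within the Mono lines, but 3 of the 4 Prom lines had higher means, from 9.16 to 9.45. Ser6, a serine protease gene, was higher by 0.86 ± 0.21 with an adjusted p of 0.0221. It lost its call when any 1 of the 4 Mono3 arrays was left out. The remaining genes were CG30411 (0.96 ± 0.07), Sgp (0.96 ± 0.18), CG7968 (0.80 ± 0.10) and Cyp4p1 (0.76 ± 0.13). Of these, CG30411 stood furthest from all other lines, with a gap of 0.71 to the nearest line mean. CG6583 was named for its gap of 0.52 above all 7 lines, with a difference of 0.56 ± 0.08.

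**Figure D2:**
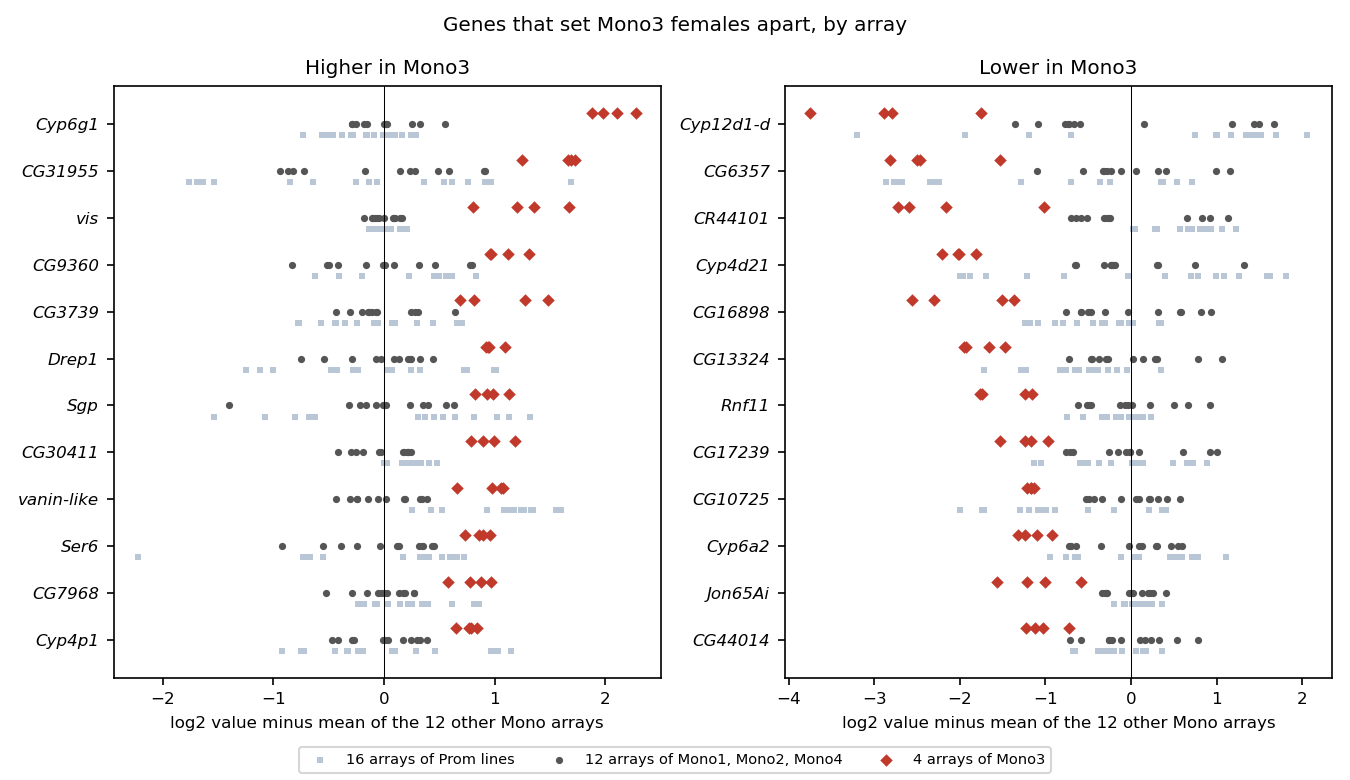
Each row is a gene, and the horizontal axis gives the log2 value of each array minus the mean of the 12 other Mono arrays, with 12 genes higher in Mono3 on the left and 12 lower on the right. The 4 Mono3 arrays (red) do not overlap the 12 other Mono arrays (dark grey) in any row, which the rule for naming required, whereas arrays of Prom lines (light) reach the Mono3 range for Drep1, vanin-like, Cyp12d1-d, CG6357 and Cyp4d21 among others.

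Cyp12d1-d had the largest fall among genes without overlap. It encodes a mitochondrial P450 known to be induced by foreign compounds. Its values were 3.34, 4.30, 5.34 and 4.20 in Mono3 and ran from 5.73 through a median of 6.46 to 8.76 in the other Mono arrays. The lowest of the other arrays was above the highest of Mono3, and the 4 arrays of Mono1 averaged 8.54. The difference was -2.80 ± 0.31, a 6.95-fold difference, with an adjusted p of 9.06e-06. The genome holds a near-identical copy, Cyp12d1-p, and the number of copies is known to vary between flies, so the signal may be the sum of both copies and the value is uncertain in that respect.

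Cyp4d21, also known as sxe1, is a P450 gene controlled by the sex determination pathway in the fat body of the head. Its Mono3 values were 3.64, 3.83, 3.82 and 4.03, near the bottom of the scale, and those of the other Mono arrays ran from 5.19 through 5.63 to 7.17. No background level is held for a probe set, so it is not known whether the Mono3 signal was above background, and the size of the difference is uncertain. The fitted difference was -2.01 ± 0.26 with an adjusted p of 5e-05. Cyp6a2, an inducible P450 linked in D. melanogaster to DDT resistance, was at 5.87, 5.96, 6.28 and 6.10 against 6.47 to 7.80, a difference of -1.14 ± 0.08 with an adjusted p of 6.22e-08.

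CR44101, a non-coding RNA gene, differed by -2.12 ± 0.17, with 3.85, 5.55, 3.98 and 4.41 in Mono3 against 5.87 to 7.70 in the other Mono arrays. It lay below all 7 lines by the widest margin among the lower genes, with a gap of -1.61 to the nearest line mean, and the 16 Prom arrays lay between 6.59 and 7.79. CG6357 differed by -2.33 ± 0.24, at 6.39, 5.42, 5.11 and 5.46 against 6.82 to 9.08. Prom1 and Prom3 had means as low, at 5.18 and 5.51. CG16898 differed by -1.93 ± 0.18, at 6.04, 4.85, 5.11 and 5.91 against 6.65 to 8.34, and its gap to the nearest of the 7 line means was -0.86.

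CG13324 differed by -1.75 ± 0.23 and was lower than in any other line. Rnf11, which encodes a RING finger protein and lies on the 4th chromosome, differed by -1.47 ± 0.15, and its second probe set by -1.04, which was also called. Jon65Ai, a Jonah protease gene of the midgut, was at 9.90, 9.35, 10.33 and 9.70 in Mono3 and at 10.57 to 11.32 in the other Mono arrays. The 16 Prom arrays also lay above Mono3, between 10.72 and 11.28, and its difference was -1.09 ± 0.11. CG10725 differed by -1.17 ± 0.19 and CG17239 by -1.23 ± 0.29. CG17239 lost its call without the M3M3 array of batch 1 or without either M3P3 array. CG44014 differed by -1.03 ± 0.13, and of its 2 other probe sets 1 was called at -0.87 and 1 was not, at -0.33 with an adjusted p of 0.0683.

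The P450 genes were described as a group. Of 88 measured, 5 rose and 8 fell, 7 of the 13 with no overlap of arrays, and the median difference of the list was 0.01, beside 0.0020 over all 11982 genes. That is 5.68% risen and 9.09% fallen, beside 2.45% and 3.2% of all genes, of which 1.37% were called without overlap. These shares of all genes, and their median, are the background of every list below. The risen genes were Cyp6g1, Cyp4p1, Cyp4d14 (0.61), Cyp4p2 (0.54) and Cyp6a20 (0.39). The fallen genes were Cyp12d1-d, Cyp4d21, Cyp6a2, Cyp6w1 (-1.02), Cyp4p3 (-0.94), Cyp6a14 (-0.68), Cyp4d20 (-0.40) and Cyp6a13 (-0.40). The 3 members of the Cyp4p cluster did not go the same way. Cyp4p2 was at 7.20, 7.29, 7.24 and 7.17 in Mono3 against 6.36 to 6.92 in the other Mono arrays, whereas Cyp4p3 was at 6.01, 6.17, 6.06 and 6.68 against 6.78 to 7.71. Neither gene overlapped between the groups. Cyp6w1 stood low in Mono2 as well as Mono3, and its Mono3 values of 5.54, 5.65, 5.85 and 6.30 overlapped the range of 5.64 to 7.76 of the other Mono arrays.

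**Figure D3:**
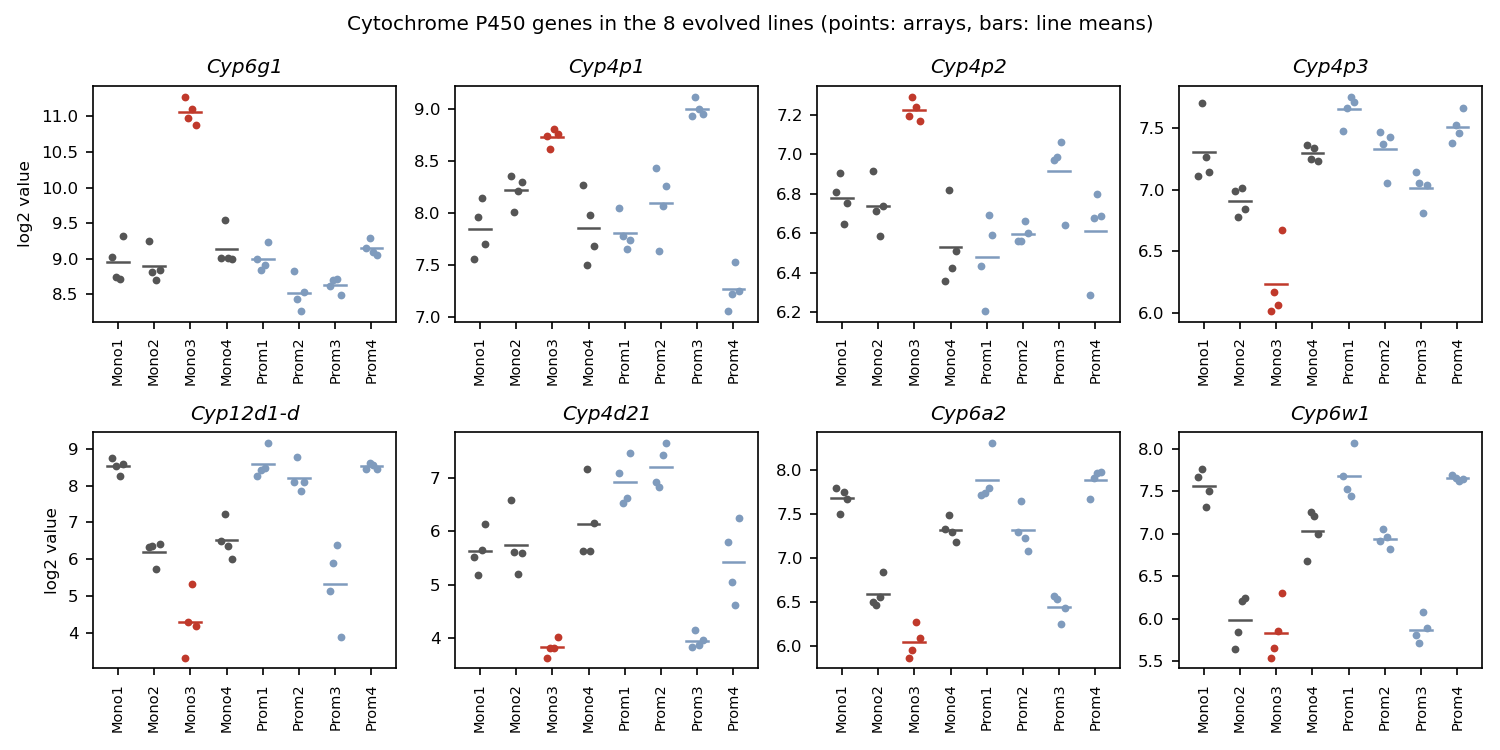
Log2 values of 8 P450 genes in the 8 evolved lines, with 4 arrays (points) and the mean (bar) per line. Cyp6g1 is high in Mono3 and in no other line, whereas Cyp12d1-d, Cyp4d21, Cyp6a2 and Cyp6w1 are low in both Mono3 and Prom3.

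Of the other detoxification families, 34 glutathione transferase genes gave 4 risen and 6 fallen, or 11.8% and 17.6% beside 2.45% and 3.2% of all genes. Of the 11 measured GstD genes on arm 3R 5 fell, with differences of -0.24 for GstD1, -0.85 for GstD2, -0.30 for GstD3, -0.93 for GstD5 and -0.29 for GstD9. GstE11 fell too (-0.54). GstD1 is the enzyme known to break down DDT in this species. GstE2 (0.56), GstE6 (0.26), GstT2 (0.21) and GstE13 (0.15), all on 2R, rose. The median of the list was 0.07. Among 35 UDP-glycosyltransferase genes 4 rose, Ugt35B1 (0.65), Ugt37E1 (0.64), Ugt37A2 (0.51) and Ugt37D1 (0.35), and Ugt36E1 fell (-0.43), with a list median of 0.10. The shares were 11.4% risen and 2.86% fallen, beside the same 2.45% and 3.2%. The glutathione transferases and P450s include close paralogs that may share probes.

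Digestive enzymes differed in both directions. Mal-A6, a maltase gene of the gut, was at 11.90, 11.84, 11.71 and 11.70 in Mono3 against 9.02 to 11.91 in the other Mono arrays. Mono2 reached the level of Mono3, and Mono1 was lowest. The difference was 1.21 ± 0.15 with an adjusted p of 3.05e-05. Mal-A1 also rose (0.63) and Mal-A8 fell (-1.09), so that 3 of 19 carbohydrate enzymes were called, with a median of 0.08. Of 27 trypsin and Jonah protease genes, Ser6 (0.86), Jon65Aii (0.63), betaTry (0.16) and alphaTry (0.15) rose, and Jon65Ai, Jon99Fi (-0.46) and Jon65Aiii (-0.26) fell, around a median of -0.05. Jon65Ai and Jon65Aii, which belong to the same cluster on 3L, moved in opposite directions.

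Of 19 yolk and eggshell genes 0 had a positive difference, against 6084 of all 11982 genes, and the list median was -0.56. The 2 called genes, 10.5% of the list beside 3.2% of all genes, were Cp7Fc, a chorion gene on X, at -1.58 ± 0.30, and dec, an eggshell protein gene on X, at -0.56 ± 0.16 with an adjusted p of 0.0496. dec was at 10.46, 10.28, 10.27 and 10.09 in Mono3, all below the 10.54 to 11.30 of the other Mono arrays. Among the other members, the yolk protein genes Yp1, Yp2 and Yp3 differed by -0.02, -0.12 and -0.03, and the vitelline membrane gene Vm26Ac by -0.62 with an adjusted p of 0.0622. Fcp3C, a follicle cell protein gene, differed by -1.16 with an adjusted p of 0.095. Among the chorion genes described below, the lowest Mono3 values lay in 1 array or in 1 cross. How far those arrays account for the negative differences of the list was not tested.

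Chorion genes are copied to high number in follicle cells in a pair of clusters, with Cp36, Cp38 and the Cp7F genes on X and Cp15, Cp16, Cp18 and Cp19 on 3L. The clusters differed between the Mono3 arrays in separate ways. Cp18 was at 11.11, 5.53, 11.05 and 11.26, so that the M3M3 array of batch 2 alone was low. The other Mono arrays ran from 7.81 to 12.80. Cp16 was low in the same array, at 6.97 against 10.55 to 10.70 in the other 3, and so was Cp19 (10.52 against 11.91 to 11.96). Cp15 was lowest there too, at 12.27, but by a smaller gap, and the other 3 arrays spread from 12.78 to 13.61. None of the 4 was called, with adjusted p values from 0.152 to 0.498. The cluster on X was not low in that array: Cp36 stood at 12.53 there and at 12.74 in the other M3M3 array.

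The mate of the Mono3 females was the next question. Own-population males were compared with Prom3 males, so mate regime and mate population changed together. For M3P3 against M3M3, 1036 of 18769 probe sets passed an unadjusted p under 0.05, where a share of 0.05 would pass if none differed. After adjustment 2 differed (0.0107%), both lower after mating to Prom3 males. The same 2 probe sets, again 0.0107%, differed in the interaction, that is the mate difference in Mono3 minus its mean in the other Mono lines. One was Cp7Fc, at 9.78 and 9.38 in M3M3 and at 5.80 and 6.61 in M3P3. All 28 other arrays in the series lay above the M3P3 pair, the other Mono arrays at 8.14 to 10.30 and the Prom arrays at 8.49 to 10.52. The mate difference was -3.37 ± 0.53 with an adjusted p of 0.0324, and the interaction was -3.85 ± 0.61 with an adjusted p of 0.0386. The other was a probe set with no gene named here, at 9.22 and 9.03 in M3M3 and 4.86 and 4.61 in M3P3, with a mate difference of -4.39 ± 0.63 and an interaction of -5.20 ± 0.73 (adjusted p of 0.0218 and 0.0152).

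Both calls depended on single arrays, as each cross had 2. For the interaction, Cp7Fc also lost its call without any 1 of 10 of the 12 arrays of the other Mono lines, with adjusted p values of 0.0652 to 0.107. Leaving out the M3M3 array of batch 1 or either M3P3 array left 0 probe sets called for the mate difference, and leaving out the M3M3 array of batch 2 gave 46. The interaction gave 0 to 6 in the same way. With limma's trend and robust settings, 0 probe sets were called in either comparison.

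Other genes with the lowest p were not called. Obp19c, an odorant-binding protein gene, was at 7.91 and 7.32 in M3M3 and 5.08 and 5.33 in M3P3, while the other Mono arrays lay at 6.87 to 9.01. Its mate difference was -2.41 ± 0.50 with an adjusted p of 0.357. A second Obp19c probe set, with a mean of 3.70 near the bottom of the scale, had a mate difference of 0.12. Cp36 and Cp38, on X like Cp7Fc, were at 11.73 and 11.55 and at 12.26 and 11.70 in M3P3, against 12.74 and 12.53 and 13.10 and 12.61 in M3M3. One other array of Mono females, of M4P4 in batch 2, was as low for both, at 11.43 and 11.44. CG14834, chosen after its values were seen, was at 8.45 and 7.79 in M3M3 and at 6.21 and 6.54 in M3P3. The remaining genes of the rule had mate differences of -0.42 to -0.44 (CG12438, CG18223 and Grl43a) or 0.15 to 0.83. The upper end was CG7300 at 0.83 ± 0.20, and Dad, the inhibitory Smad of the Dpp pathway, had 0.46 ± 0.09; lncRNA:CR44217, Cyp12b2, CG42254, CG30356 and CG1271 lay between. In the fit on the arrays of Mono females alone, the interaction of CG42254 passed, at 0.86 with an adjusted p of 0.0271, in place of 0.952 in the fit on all arrays.

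**Figure D4:**
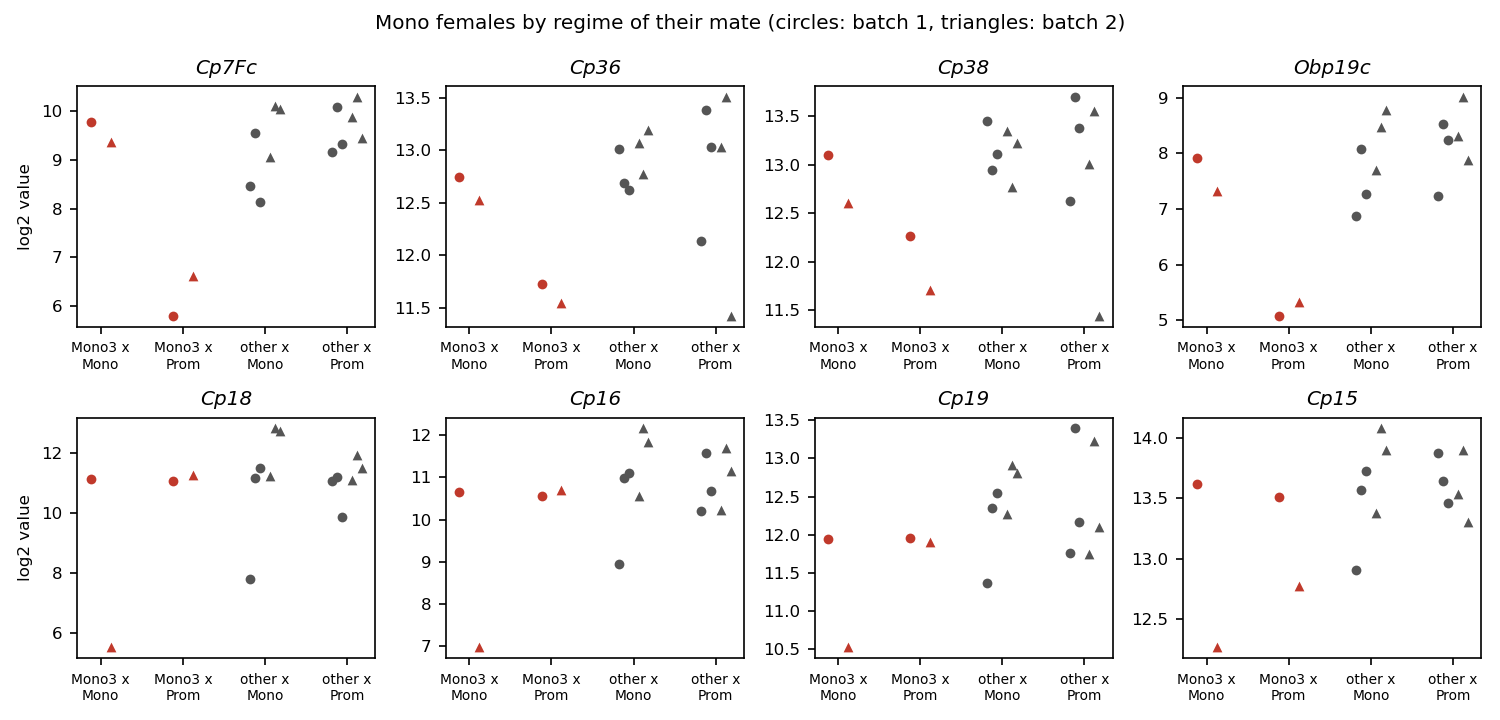
Log2 values of 7 chorion genes and Obp19c in Mono females, by line (Mono3 in red, other Mono lines in grey), regime of the mate and batch (circles batch 1, triangles batch 2). Cp7Fc and Obp19c are low in the 2 arrays of Mono3 females mated to Prom3 males, and Cp18, Cp16 and Cp19 in 1 array of Mono3 females mated to Mono3 males. Among the Mono3 arrays, Cp15 is lowest in that same array, by a smaller gap.

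Of 23 genes for ovulation and the sex peptide response, 0 rose and 3 fell (13%, beside 3.2% of all genes), and the median was -0.04. Send1 and Send2 encode endopeptidases secreted in the spermathecae, where females store sperm. Send1 was at 6.40, 6.44, 6.27 and 6.63 in Mono3 against 6.62 to 9.41 in the other Mono arrays with a median of 7.75, a difference of -1.35 ± 0.26. Send2 was at 4.31, 4.14, 4.61 and 5.79, against 4.40 to 9.65 with a median of 8.45, a difference of -2.94 ± 0.73 with an adjusted p of 0.0231. Both overlapped with the low end of the other arrays. For Send2 the low arrays outside Mono3 were those of M2M2, at 4.40 and 4.50, and the replicate arrays of M1M1 differed, at 6.77 and 9.64. Nep2, a neprilysin peptidase gene, fell as well (-0.26). CG32833, chosen after its values were seen, differed by -1.42 ± 0.16.

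Among the germline genes, 1 of 32 rose and 1 fell. bam, which drives the daughters of germline stem cells to differentiate, was at 9.23, 9.36, 9.12 and 9.28 in Mono3, against 8.41 to 9.15 with a median of 8.71 in the other Mono arrays. The 16 Prom arrays lay between 8.23 and 8.81, all below the Mono3 arrays. The difference was 0.51 ± 0.07 with an adjusted p of 0.00019. c(3)G, a component of the synaptonemal complex, fell (-0.30). The list median was 0.01.

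Of 102 cuticle protein genes 7 rose (6.86%, beside 2.45% of all genes) and 0 fell (beside 3.2%), and 71 of 102 differences were positive, around a median of 0.06. Cpr47Ea (0.64), Cpr49Ag (0.59), Lcp65Ag3 (0.43) and Cpr51A (0.38) rose most clearly, and the others were Cpr31A, TwdlN and TwdlL at 0.19 to 0.20. Cpr49Ag, at 6.04, 6.08, 6.35 and 6.06 against 5.28 to 5.68, was the only one with no overlap. Of 48 odorant-binding protein genes, 2 rose, Obp57a (0.70) and Obp56i (0.23), and 2 fell, Obp19c (-1.62) and Obp56h (-1.05), around a median of 0.01. The M3M3 arrays of Obp19c lay within the range of the other Mono arrays. Its second probe set, with a mean of 3.70, differed by -0.02 with an adjusted p of 0.928. Of 166 odorant, gustatory and ionotropic receptor genes Or94a rose (0.38) and Ir7c fell (-0.48), with a median of 0.04.

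The immune lists are read beside the 5.65% of all genes that were called in either direction. No antimicrobial peptide of 12 and no Bomanin or other immune-induced peptide of 10 was called, with medians of -0.12 and -0.17. Of 32 genes of immune recognition and signalling, 0 rose and 2 fell: pll, the kinase of the Toll pathway (-0.24), and Tep3, a thioester protein gene (-0.40), and the median was -0.10. Differences were positive for 4 of 12, 2 of 10 and 4 of 32 genes of these lists, beside 6084 of all 11982 genes. Of 5 Turandot stress peptides TotF rose (0.29), and the median was 0.07. Spn55B rose (0.28) and Spn42Da fell (-0.16) among 28 serpins, whose median was 0.03.

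Metabolic and endocrine lists held single calls. In lipid metabolism 2 of 24 genes rose, Npc2g (0.47), of the sterol-binding NPC2 family, and mag, a gut lipase (0.43), and Lip2 fell (-0.37), with a median of 0.01. Of 25 zinc and metal transport genes Zip42C.2 rose (0.49) and Zip99C fell (-0.53), with a median of -0.05. JhI-26, a juvenile hormone-inducible gene, rose (0.38) among 15 hormone genes with a median of 0.06. Sdr, a secreted protein that binds insulin-like peptides, fell (-0.37) among 14 insulin and TOR genes with a median of -0.03. DnaJ-1, an Hsp40 chaperone, fell (-0.19) among 17 chaperones with a median of -0.03. ETH, the ecdysis triggering hormone, rose (0.34) among 28 neuropeptide genes with a median of -0.01, and ninaD, a receptor for carotenoid uptake, rose (0.86) among 14 genes of phototransduction with a median of 0.04.

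No gene was called among 36 ribosomal protein genes, 75 oxidative phosphorylation genes, 17 sarcomere genes, 10 clock genes or 25 male accessory gland genes, with medians of 0.02, 0.02, 0.09, 0.05 and 0.02. Of 42 testis genes mia rose (0.33) and sowah fell (-0.34), with a median of 0.05.

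The comparison was also made line by line, with the Mono3 arrays shared by all of these contrasts. Mono3 differed from Mono1 in 962 probe sets (5.13%), from Mono2 in 837 (4.46%) and from Mono4 in 759 (4.04%). Against the 4 Prom lines together it differed in 1151 (6.13%). Of the 24 genes named by size, 20 were called against each of the 3 Mono lines. The 4 others were Sgp and Ser6, not called against Mono4 (adjusted p of 0.156 and 0.431), Cyp4p1, not called against Mono2 (0.0664), and CG17239, not called against either Mono2 or Mono4 (0.0995 and 0.0655).

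With line means in place of arrays, so that Mono3 counted as a single value and its spread was taken from the other lines, 3 probe sets were called and 1248 passed an unadjusted p under 0.05. They belonged to vis (adjusted p of 0.00734), to Lmx1a, a LIM homeodomain gene at 1.24 ± 0.10 (0.0202), and to Argp at -0.68 ± 0.06 (0.041). The adjusted p of Cyp6g1 was 0.0734 in this fit. In the fit on arrays Lmx1a had an adjusted p of 0.0493 with overlapping arrays. Outside Mono3 the values of vis lay near the bottom of the scale. If none of the 18769 probe sets differed, a share of 0.05 would pass an unadjusted p under 0.05 in the fit on line means.

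The deviation of Mono3 from its regime was set beside that of each promiscuous line from its own, which shares no arrays with it. Of 11982 genes, 658 were called for Prom3 against the other Prom lines (5.49%). Both lists held 153 genes, or 22.6% of the Mono3 list and 23.3% of the Prom3 list. Of these 103 went the same way and 50 opposite ways. With Prom1, 93 genes were called in both, or 13.7% of the Mono3 list and 19.5% of the 476 of Prom1, and 45 went the same way. With Prom2, they were 88, or 13.0% and 28.1% of 313, and 33 went the same way. With Prom4, they were 107, or 15.8% and 24.5% of 436, and 39 went the same way. As a share of the promiscuous line's own list, the overlap with Prom3 was thus below that with Prom2 and Prom4. For all 4 Prom lines, the background of this share is the 5.65% of all genes called in Mono3. Over all 11982 genes the differences correlated at 0.19 with Prom3 (Spearman 0.11), -0.09 with Prom1, -0.08 with Prom2 and -0.05 with Prom4. The other Mono lines also correlated positively with the Prom line of their number, at 0.09 for Mono1, 0.11 for Mono2 and 0.03 for Mono4. With Prom lines of another number, these 3 lines gave -0.12 to 0.11. These correlations are across genes, which are not independent, and all arrays share their normalization and batches.

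**Figure D5:**
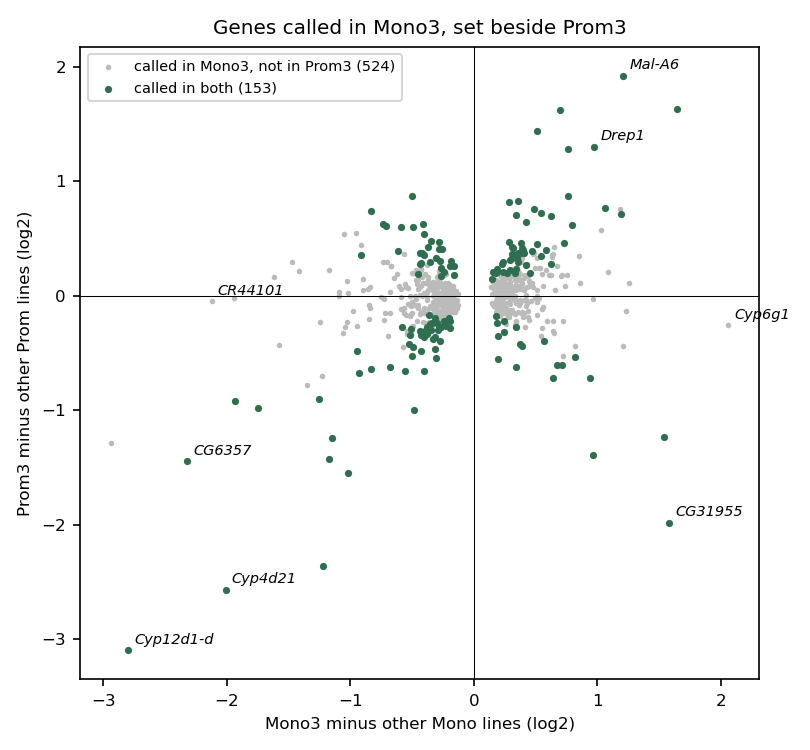
Each point is 1 of the 677 genes called in Mono3, with the log2 difference of Mono3 from the other Mono lines on the horizontal axis and of Prom3 from the other Prom lines on the vertical axis. The 153 genes called in both (green) include Cyp12d1-d and Cyp4d21, low in both lines, Mal-A6 and Drep1, high in both, and CG31955, high in Mono3 and low in Prom3, while Cyp6g1 and CR44101 lie near 0 for Prom3.

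Several of the P450 genes stood out in both lines. In Prom3 against the other Prom lines Cyp12d1-d differed by -3.10 ± 0.31, Cyp4d21 by -2.57 ± 0.26, Cyp6w1 by -1.55 and Cyp6a2 by -1.24 ± 0.08. Their values in Mono3 were -2.80, -2.01, -1.02 and -1.14. For Cyp4d21 and Cyp12d1-d, whose lowest arrays lay near the bottom of the scale, the sizes are uncertain and are not ranked. Cyp4p1 was higher in both, by 1.28 in Prom3 and 0.76 in Mono3, and Mal-A6 by 1.92 and 1.21. Also called in both, Cyp4p2 was higher and Cyp6a13, Cyp6a14 and Cyp4p3 were lower in each line. Cyp4d20 was called in both with opposite signs, at 0.54 in Prom3 and -0.40 in Mono3. Cyp4d14 and Cyp6a20 were not called in Prom3. Cyp6g1 differed by -0.25 in Prom3 with an adjusted p of 0.289, and CG31955, Sgp and vanin-like were lower in Prom3, by -1.98, -1.39 and -0.72. Mono3 females and Prom3 females were mated to the same males, those of Mono3 and Prom3, and females of the other lines to neither. Each contrast averages over both mates, which does not remove this. Effects of these males cannot be told apart from those of the female lines in either contrast.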

How the data were processed

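The authors deposited log2 values, 1 for each probe set on each array. The submitters' processing notes name RMA and affy, without versions. RMA normalizes arrays to a shared distribution, so a shift common to most transcripts would be removed. Of 18952 probe sets, 183 controls were left out and 18769 were tested. The platform annotation gave 1 gene for 13647, several for 402 and none for 4720; 13544 matched the RefSeq table of assembly Release 6 plus ISO1 MT, used for symbols and arms, and 103 did not. A gene was represented by its probe set with the highest mean.

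limma 3.58.1 in R 4.3.3 was fitted to all 32 arrays with 16 crosses and batch as terms (15 residual degrees of freedom), with two-sided tests and Benjamini-Hochberg adjustment over all probe sets at 0.05. Replicate numbers match the labelled batches, so the batch term is the replicate block. The design names 2 biological replicates per cross. The script was tested on simulated data. The arrays hold no detection call in the values used here, and precision is limited by how many arrays there are.

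The rule for named genes took the 12 largest differences per direction among genes called without overlap, the 5 per direction furthest beyond all 7 other lines, the 5 per direction with the lowest p for mates and their interaction, and up to 4 members per gene list. The line, the 29 gene lists and the rules were chosen with earlier results of these data known. Lists are described by counts and medians, with no set test. Other alternatives changed normalization, low-value filter, variance model, arrays and replicates.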

Additional observations from a re-analysis of the deposited data

Results flagged for a closer look

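The check covered 75 named genes, members of the eggshell list and called P450 and glutathione transferase genes. In 7 of them, 1 Mono3 array lay far from the other 3. Chance flags about 1 in 20 groups of independent values. These genes are not independent, since 3 of the 7 belong to 1 chorion cluster, and batch was not removed. No excess over chance can be read from the count of 7. In the M3M3 array of batch 2, 3 chorion genes of the cluster on 3L were low: Cp18 at 5.53 against 11.05 to 11.26, Cp16 at 6.97 against 10.55 to 10.70 and Cp19 at 10.52 against 11.91 to 11.96. The same array was high for Cyp6a20, at 6.50 against 6.24 to 6.27, and for Drep1, at 8.57 against 8.40 to 8.43. The M3M3 array of batch 1 was low for CG31955, at 7.60 against 8.01 to 8.08, and for CG6583, at 9.30 against 9.64 to 9.71. All of these arrays of CG31955, CG6583 and Drep1 still lay above the 12 other Mono arrays.

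The mate difference of Cp7Fc in Mono3 minus that in the other Mono lines was -3.85, and that of the unnamed probe set was -5.20; both passed limma's test of the interaction, and no probe set passed it without the M3M3 array of batch 1 or without either M3P3 array. Cp7Fc also lost this call on leaving out any 1 of 10 of the 12 arrays of the other Mono lines, with adjusted p values of 0.0652 to 0.107.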

How the results depend on the processing

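The main count of 847 probe sets was 570 with no replicate block (the batch term left out), and all 25 named genes kept their call. It was 295 in batch 1 alone and 305 in batch 2 alone. It was 339 for females mated to Mono males only, 200 for those mated to Prom males only and 3 with line means as replicates. Each of these comparisons sets fewer arrays or values against each other than the main comparison does. Whether this caused the lower counts was not tested. The count without overlap of arrays, 199, became 2 with line means. Mono3 against Mono2 gave 544 without the block in place of 837, and the mate difference and its interaction gave 0 each with trend and robust settings. Cyclic loess, quantile normalization, a minimum mean of 6, Mono arrays alone, and the 3′ minus 5′ term (added after seeing the data) kept the main count within 1.5 times, at 755 to 1049.

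Leaving out 1 array or line moved the main count between 427 (without the M3P3 array of batch 1) and 967 (without Mono4); without the M3P3 array of batch 2 it was 545. The count without overlap ran from 176 to 394, at 312, 341 and 394 without Mono1, Mono2 and Mono4. Against Mono1 the range was 651 to 985, against Mono2 460 to 1079, against Mono4 451 to 716 and against the Prom lines 601 to 1199. The mate difference ran from 0 to 46 and the interaction from 0 (without the M3M3 array of batch 1 or either M3P3 array) to 6 (without the M3M3 array of batch 2). The interaction gave 1 on leaving out any 1 of the Mono2, M1P1 or M4P4 arrays or the M1M1 array of batch 2. Low counts came without the M3P3 array of batch 1 for Mono4 (451), for Mono2 (461) and for the Prom lines (601, and 761 without that of batch 2); without the M2M2 array of batch 1 (460) or an M2P2 array (531 and 490) for Mono2; and without the M4P4 array of batch 1 for Mono4 (466).

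No named gene changed direction. Ser6 lost its call in 13 of 31 settings, CG17239 in 8 and Sgp in 4, and 24 of 25 lost it with line means, vis being the exception. With all probe sets of its genes, a list's calls changed by over 1.5 times only for serpins lower, from 1 to 2. The cause of these changes was not tested.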
